A study of Mus musculus with 12 samples.

Results

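Mouse B lymphoma cells that had lost their B-cell receptor (BCR) and were cultured with CHIR99021 were compared with BCR-independent clones, which grew without a BCR and without the compound. The comparison takes 6 of the 12 arrays of the study: the 3 whose titles say BCR-negative and CHIR99021 treated, and the 3 untreated ones whose titles say BCR-independent with a clone number. Each of the tumours 2567, 2646 and 2676 gave 1 array to each side, and the difference was taken within a tumour. All cells were primary cultures of lymphomas from l-MYC;B1-8f mice of strain C57BL/6J x BALB/c, and TAT-Cre, a cell-permeable recombinase, had been used to remove the BCR. The treated cells were BCR-negative cells grown for 4 days beside BCR-positive cells in the presence of CHIR99021, an inhibitor of the kinase GSK3b, and were then sorted by flow cytometry. The BCR-independent cells came from BCR-negative tumours after prolonged culture, were 1 clone per tumour (clone 8 of 2567, clone 7 of 2646 and clone 1 of 2676), and shared their culture with BCR-positive cells from that tumour for 4 days before sorting. The other 6 arrays, untreated BCR-positive and untreated BCR-negative cells of the same tumours, entered the fit for its estimate of spread and give the levels quoted as a reference. Per the series' design text, untreated BCR-negative cells were being outcompeted at 4 days and the clones were not. The comparison sets a few days of kinase inhibition beside long-term adaptation, and exposure to the compound, time in culture and the choice of a single clone cannot be told apart in it.

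The B-cell receptor is a membrane immunoglobulin with the signalling chains CD79A and CD79B, and signals that restrain GSK3 in B cells pass from it through SYK, BTK, PI3-kinase and AKT. GSK3 phosphorylates many proteins, among them beta-catenin and MYC, and marks both for degradation. FOXO transcription factors are kept out of the nucleus by AKT and switch on genes of growth arrest, nutrient stress and autophagy.

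Over all 35556 probe sets, 1 passed the test at an adjusted p under 0.05 (0.00281% of those tested; limma with Benjamini-Hochberg adjustment, tumour as a block): Mgat4c, which was lower in treated cells. With 1 probe set per gene and dim probe sets left out, 21 of 12961 genes passed, 17 lower in treated cells (0.131%) and 4 higher (0.0309%). Values and adjusted p-values below come from that gene-level fit where a gene is said to have passed; the genes it adds to Mgat4c were chosen for description after their values were seen, and none of those 20 passed over all probe sets. For other genes the SE and the unadjusted p are those of the fit over all probe sets. In bulk RNA of sorted cells, fewer cells with a transcript and less of it per cell cannot be told apart. The 17 lower genes were Mgat4c, Klhl24, Trp53inp1, Mxd4, H2az2, Neil1, Pdcd4, Lhx2, Fbxl20, Pafah1b3, Ypel3, Bckdha, Btg2, Cerk, Atg13, Smarca4 and Tnnt3. The 4 higher genes were Cd74, Kcnab2, Tspan4 and Prdx3. All 21 differed in the same direction in 3 of 3 tumours, and the fitted difference was at least 2-fold in 14. For 20 the treated and clone arrays did not overlap, Prdx3 being the exception. The genes were selected on this same contrast, so these counts are no separate support. Over all genes, 17.0% were higher and 16.1% lower in all 3 tumours, and the share without overlap was not counted. The number of genes that passed changed with the fit: it was 0 without tumour 2567, 2 without 2646 and 12 without 2676. It was 5 without the tumour block and 1 with only the 6 arrays in the fit. Leaving out a tumour also leaves fewer arrays for the estimate of spread, and the cause of the drops was not tested. At an unadjusted p under 0.05 stood 2890 probe sets, 1495 higher and 1395 lower, where a uniform spread of p-values gives 1777.8.

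**Figure D1:**
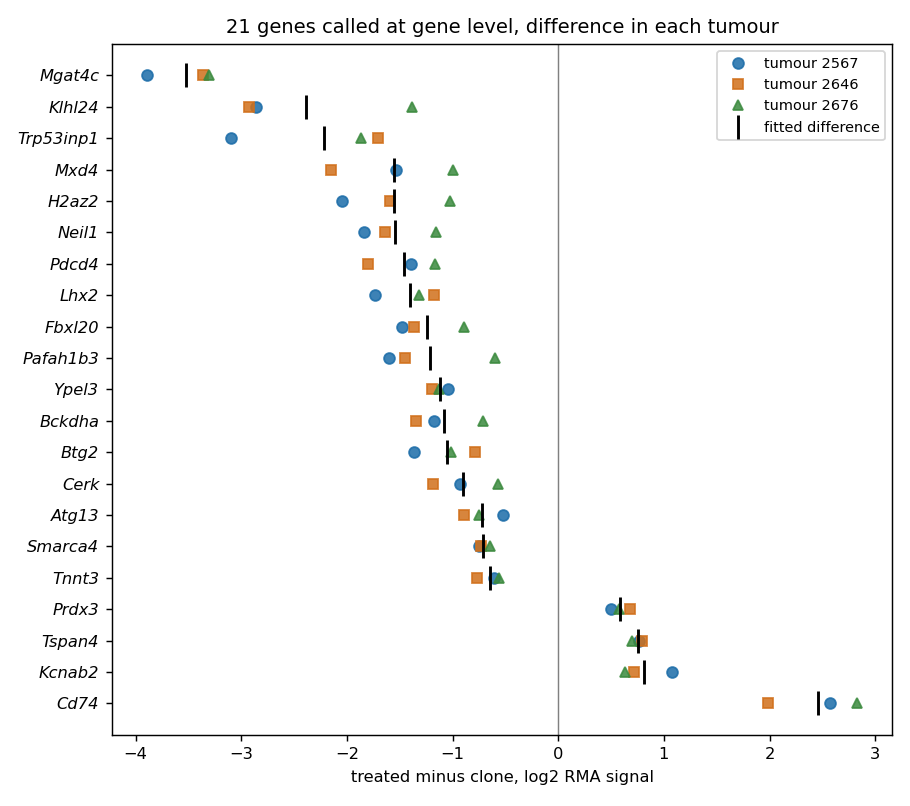
Difference between treated cells and the clone of the same tumour for the 21 genes that passed at gene level, in log2 RMA signal. Symbols are the 3 tumours (1 array against 1 array) and the black bar is the fitted difference; every symbol lies on its gene's side of 0, with Mgat4c at -3.52 and Cd74 at 2.46.

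Of the 21 genes, 16 had a promoter window of 300 bases (250 before to 50 after a transcription start, RefSeq, GRCm38.p6), 24 windows in all. Short motifs were searched on both strands. The forkhead core GTAAACA was in 3.65% of 32851 windows of the genome and in 2 of the 24, those of Mgat4c and Ypel3. The E-box CACGTG was in 7.15% and in 2 of the 24, those of Mxd4 and Tspan4. The TCF-LEF core CTTTGAT was in 3.73% and in none of the 24. The 4 windows with a match are given because Mgat4c has the largest difference, Mxd4 belongs to the MYC and MAX network, and Ypel3 and Tspan4 hold the same letters; they lie at chr10:102158829-102159128 on the plus strand (Mgat4c), chr7:126776713-126777012 plus (Ypel3), chr5:34187661-34187960 minus (Mxd4) and chr7:141476130-141476429 plus (Tspan4). Capitals mark the match, which reads as its reverse complement TGTTTAC in Mgat4c.

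Mgat4c: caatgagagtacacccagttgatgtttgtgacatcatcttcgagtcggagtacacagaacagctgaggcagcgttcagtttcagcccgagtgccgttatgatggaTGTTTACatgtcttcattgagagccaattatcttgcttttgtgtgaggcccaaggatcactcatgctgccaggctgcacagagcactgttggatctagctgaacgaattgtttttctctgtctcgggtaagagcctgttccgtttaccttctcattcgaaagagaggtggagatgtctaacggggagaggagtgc

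Ypel3: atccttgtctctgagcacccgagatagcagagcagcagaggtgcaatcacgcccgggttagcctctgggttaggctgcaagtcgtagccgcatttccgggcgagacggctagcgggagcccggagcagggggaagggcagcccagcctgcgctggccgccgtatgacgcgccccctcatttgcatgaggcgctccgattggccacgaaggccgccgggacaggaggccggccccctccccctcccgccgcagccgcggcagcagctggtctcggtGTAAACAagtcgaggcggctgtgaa

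Mxd4: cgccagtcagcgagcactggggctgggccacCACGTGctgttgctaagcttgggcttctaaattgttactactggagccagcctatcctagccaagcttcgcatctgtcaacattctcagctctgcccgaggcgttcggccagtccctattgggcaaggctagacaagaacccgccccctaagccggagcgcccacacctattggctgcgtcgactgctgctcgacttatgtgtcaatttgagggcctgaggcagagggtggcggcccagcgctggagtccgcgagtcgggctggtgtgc

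Tspan4: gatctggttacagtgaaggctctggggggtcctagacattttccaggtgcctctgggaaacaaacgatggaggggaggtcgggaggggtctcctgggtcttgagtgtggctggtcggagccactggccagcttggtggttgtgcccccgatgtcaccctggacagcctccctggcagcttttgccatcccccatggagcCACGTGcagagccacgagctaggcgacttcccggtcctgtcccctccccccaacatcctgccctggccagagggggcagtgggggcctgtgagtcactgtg

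The matches start at 145 bases before the start site in Mgat4c, 26 after it in Ypel3, and 219 and 51 before it in Mxd4 and Tspan4. A match describes these letters only.

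Mgat4c (probe set 10366144), an N-acetylglucosaminyltransferase-family gene of N-glycan branching, was near the background of the arrays in treated cells and well expressed in the clones. Its log2 signals in treated cells were 2.82 (tumour 2567), 2.98 (2646) and 2.81 (2676), each dim, that is, below its array's 40th percentile. In the clones they were 6.71, 6.35 and 6.12. Every clone array was above every treated array by over 3 log2 units, a fitted difference of -3.52 ± 0.270 (SE, n = 3 tumours; adjusted p = 0.0031 by limma at gene level, 0.0256 over all probe sets). Since the treated level is a bound, the clones were higher by at least 3.29 on the log2 scale when the 40th percentile is put in its place. Untreated BCR-negative cells had 3.11, 3.73 and 2.85, and BCR-positive cells a mean of 3.23 ± 0.827 (SD, n = 3), so the clones stood apart from all other arrays of this gene. Of the 12 N-glycan branching genes 8 were lower and 4 higher. Beside Mgat4c, the sialyltransferase St6gal1 (-0.88), the core fucosyltransferase Fut8 (-0.43) and, in the other direction, Mgat2 (0.20) stood at an unadjusted p under 0.05 without passing the adjustment; Mgat4a and Mgat4b, which encode related enzymes, had -0.19 and 0.03.

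**Figure D2:**
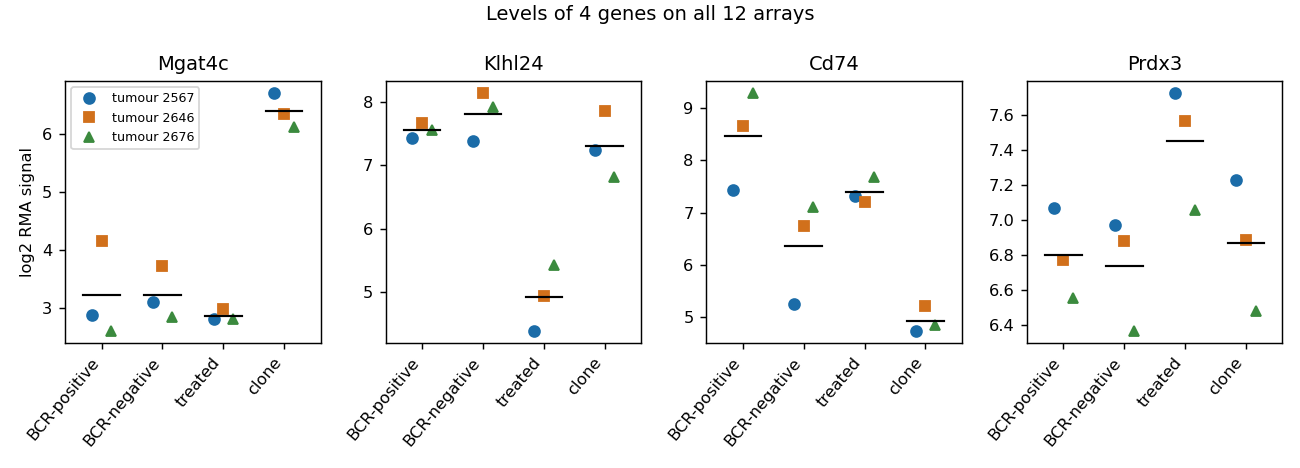
Log2 RMA signal of Mgat4c, Klhl24, Cd74 and Prdx3 on all 12 arrays, by group; symbols are tumours and horizontal bars group means, and each panel has its own axis range. Mgat4c is high in the clones alone, Klhl24 is low in treated cells alone, and treated cells lie above clones for Cd74 and, within each tumour, for Prdx3.

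Klhl24 (probe set 10434302), which encodes a substrate adaptor of a cullin ubiquitin ligase, showed the opposite arrangement. The treated arrays had 4.39, 4.93 and 5.42 log2 units and the clones 7.25, 7.86 and 6.81, in the order 2567, 2646, 2676. The groups did not overlap, and the fitted difference was -2.39 ± 0.253 (SE; adjusted p = 0.0127 by limma at gene level). Untreated BCR-negative cells, at 7.38, 8.14 and 7.91, lay near the clones. Trp53inp1, a stress-induced gene that promotes autophagy and cell death, was likewise low only in treated cells, at 5.89, 7.17 and 6.23 against 8.98, 8.87 and 8.10 in the clones, a difference of -2.22 ± 0.262 (adjusted p = 0.0222), with a mean of 9.11 in untreated BCR-negative cells.

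Several of the lower genes are known brakes on growth or translation. Mxd4, a MAX partner that opposes MYC, was lower in treated cells by -1.56 ± 0.196 (SE; adjusted p = 0.0225), with 5.48, 5.40 and 6.38 against 7.01, 7.55 and 7.38. Pdcd4, an inhibitor of the translation factor eIF4A, was at 6.72, 6.70 and 6.92 against 8.12, 8.50 and 8.08, a difference of -1.46 ± 0.140 (adjusted p = 0.0119). Btg2, an antiproliferative cofactor and p53 target, was lower by -1.06 ± 0.142 (adjusted p = 0.0284) and Ypel3, a gene linked to growth arrest, by -1.12 ± 0.146 (adjusted p = 0.0245). The treated and clone arrays did not overlap for these 4 genes.

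Lhx2, a LIM-homeobox transcription factor, had 5.11, 5.42 and 5.16 in treated cells and 6.84, 6.59 and 6.48 in the clones (difference -1.41 ± 0.178, SE; adjusted p = 0.0225); untreated BCR-negative cells averaged 5.57 ± 0.365 (SD, n = 3). Tnnt3, a troponin subunit of striated muscle, averaged 4.09 in treated cells, 4.74 in the clones and 4.26 in untreated BCR-negative cells (difference -0.65 ± 0.0963; adjusted p = 0.0484). For Mgat4c, Lhx2 and Tnnt3 the untreated level was the nearer to that of treated cells, and for Neil1, a DNA glycosylase of base excision repair, it was between the treated mean of 6.09 and the clone mean of 7.63, at 7.10.

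The remaining lower genes were H2az2 (a histone variant), Fbxl20 (an F-box subunit), Pafah1b3 (a platelet-activating factor acetylhydrolase subunit), Bckdha (of branched-chain keto acid oxidation), Cerk (ceramide kinase), Atg13 (of the autophagy-initiating kinase complex) and Smarca4 (the BRG1 chromatin remodeller). Their differences ran from -1.56 (H2az2) to -0.71 (Smarca4), with adjusted p between 0.0127 and 0.0487, and in these 7 the clones differed from untreated BCR-negative cells by -0.39 to 0.05. Smarca4 had a mean of 9.09 in treated cells and 9.80 in the clones.

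**Figure D3:**
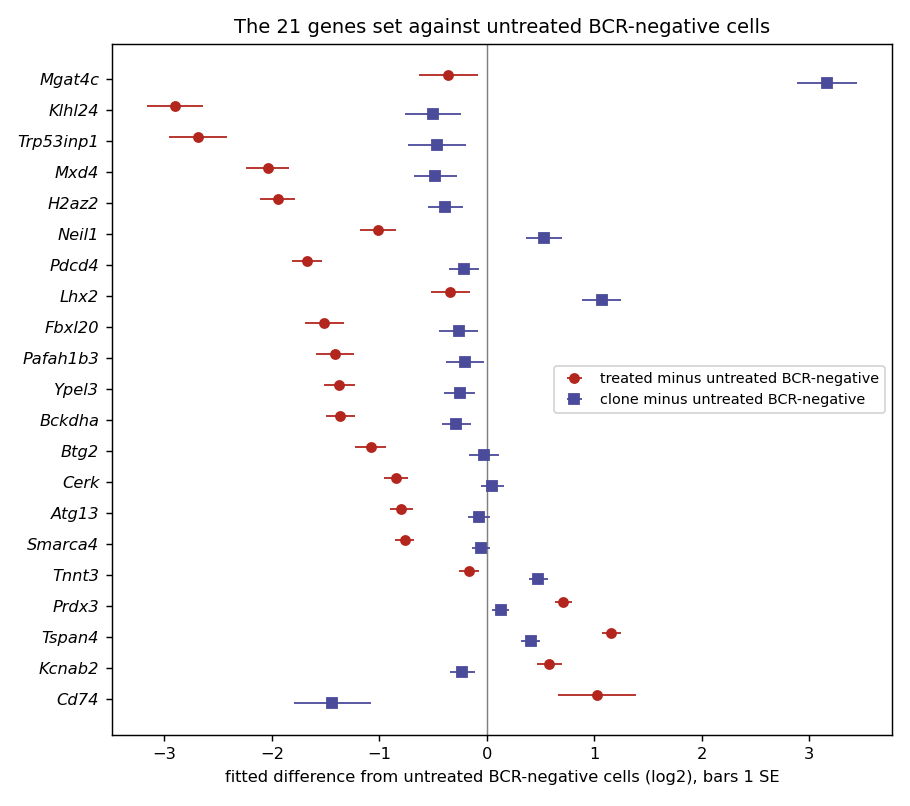
Fitted difference from untreated BCR-negative cells (log2) of treated cells (red circles) and of the clones (blue squares) for the 21 genes. Bars are 1 SE in the fit over all probe sets. Both sets of points share the same 3 untreated arrays; Mgat4c, Lhx2 and Cd74 have clone values far from 0, at 3.16, 1.07 and -1.44, and Klhl24 and Trp53inp1 have treated values of -2.90 and -2.68.

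Cd74, the invariant chain that escorts MHC class II molecules to the endosome, was the largest difference upward. It was at 7.31, 7.20 and 7.68 in treated cells and at 4.75, 5.21 and 4.85 in the clones, a gap in every tumour. The fitted difference was 2.46 ± 0.346 (SE; adjusted p = 0.0383 by limma at gene level, 0.104 over all probe sets). Untreated BCR-negative cells had 5.25, 6.75 and 7.11 and BCR-positive cells 7.43, 8.66 and 9.28, so the level in treated cells was not above that of BCR-positive cells in any tumour. Among the 4 higher genes, Cd74 was the only one with its lowest mean in the clones and its highest in BCR-positive cells. The 17 lower genes, by their selection, could not have their lowest mean in the clones.

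The other MHC class II genes moved less evenly. Of 11 measured members, 9 had a positive difference and the list's median was 0.35 log2 (0.41, 0.27 and 0.41 in the 3 tumours), where the median over all genes was 0.00113. H2-Aa, the alpha chain of I-A, was at 4.14, 4.95 and 5.15 in treated cells and 3.63, 3.68 and 3.07 in the clones, the last of them dim (1.29 ± 0.61, SE in the fit over all probe sets; unadjusted limma p of 0.066), and H2-Ab1, its partner chain, had a difference of 0.92 ± 0.73 (p of 0.244). Ciita, the transactivator of the class II genes, had 0.35 ± 0.14 at an unadjusted p of 0.037, with 1 clone array dim. H2-Ob, the beta chain of the peptide-exchange regulator H2-O, ran the other way at -1.07. Cd74 alone passed. Beside these values, Ighv1-72, the heavy-chain variable gene that the B1-8f allele carries, was at 6.13, 4.93 and 6.26 in treated cells, 4.20, 4.21 and 3.72 in the clones and at a mean of 9.62 in BCR-positive cells; its difference of 1.73 ± 0.32 (gene-level adjusted p = 0.078) did not pass, near-identical V genes may share its probes, and its part in the MHC values was not tested. The constant-region probe sets of Ighm and Igkc differed by 0.03 ± 0.10 and -0.02 ± 0.79. Ighm averaged 3.76 in treated cells, 3.74 in the clones and only 4.09 in BCR-positive cells. Igkc averaged 5.63, 5.64 and 4.68 in the same order. Since neither was clearly raised in BCR-positive cells, these differences say little about constant-region expression.

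Kcnab2, a regulatory subunit of voltage-gated potassium channels, Tspan4, a tetraspanin, and Prdx3, a mitochondrial peroxiredoxin, made up the rest of the higher genes. Prdx3 was at 7.73, 7.56 and 7.06 in treated cells and 7.23, 6.89 and 6.48 in the clones, higher in each tumour by 0.50, 0.68 and 0.58, while the arrays overlapped between tumours. Its fitted difference was 0.58 ± 0.0877 (SE; adjusted p = 0.0487), the smallest of the 21. Tspan4 differed by 0.75 ± 0.0935 (adjusted p = 0.0225) and Kcnab2 by 0.81 ± 0.120 (adjusted p = 0.0476).

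Other redox genes leaned the same way: of 18 measured members of the mitochondrial redox list 14 had a positive difference, 5 at an unadjusted p under 0.05, and 7 were higher in all 3 tumours. Prdx3 passed; Txnrd1, the cytosolic thioredoxin reductase, was at 7.85, 7.83 and 7.52 against 6.36, 7.03 and 7.31 (0.83 ± 0.20, SE; unadjusted limma p of 0.003) and Gpx4, the lipid-hydroperoxide peroxidase, had -0.31. Across all genes, 5.22% were higher and 3.94% lower at an unadjusted p under 0.05, and 17.0% were higher and 16.1% lower in all 3 tumours. Against that, the ribosome biogenesis list had 21 of 22 members positive, 7 of them at p under 0.05 and 18 higher in all 3 tumours (median 0.19); Heatr1 and Tcof1, both of rRNA transcription and processing, had 0.39 and 0.38. The nucleotide and one-carbon list had 20 of 20 positive, 5 at p under 0.05 and 11 in all 3 tumours (median 0.24); Psph, the last enzyme of serine synthesis, had 0.62 ± 0.14 (SE). Of the amino acid transport and ATF4 list, 16 of 18 were positive; Slc7a5 and Slc3a2, which together form the large neutral amino acid transporter LAT1, had 0.64 and 0.45 at unadjusted p of 0.011 and 0.003, and the median per tumour was 0.15, 0.45 and -0.07. No member of these 3 lists passed the adjusted test.

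MHC class I presentation leaned upward as well, with 10 of 12 members positive, 3 at an unadjusted p under 0.05 and 8 higher in all 3 tumours (median 0.27). Psmb8, an immunoproteasome subunit, was at 7.78, 8.20 and 7.72 in treated cells and 6.83, 7.89 and 6.94 in the clones (0.68 ± 0.25, SE over all probe sets), and B2m, the class I light chain, had 0.40 ± 0.16. The arrays of both genes overlapped between the groups, and no member passed.

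Mitochondrial energy genes had smaller shifts. In the respiratory chain and ATP synthase list 17 of 20 members were positive and 5 were at an unadjusted p under 0.05, with per-tumour medians of 0.30, 0.02 and 0.06, so that the shift was mostly that of tumour 2567. Cs, citrate synthase, was at 9.79, 9.46 and 9.51 in treated cells and 9.03, 9.17 and 9.21 in the clones, and Idh3a, a subunit of isocitrate dehydrogenase, at 8.46, 8.40 and 8.21 against 8.01, 7.95 and 7.77; neither overlapped and neither passed (gene-level adjusted p = 0.155 and 0.145). Pcx, pyruvate carboxylase, ran the other way at -0.63. Of 19 measured genes of the TCA cycle list, 14 were higher and 5 lower, with 3 higher and 2 lower at an unadjusted p under 0.05. The list's per-tumour medians were 0.22, 0.01 and 0.10. Cd36, a fatty acid uptake receptor, was at 6.55, 7.82 and 6.78 against 3.06, 6.48 and 6.22, a difference of 1.80 ± 0.47 (SE). The clone array of 2567 was dim, so the difference in that tumour is set against a bound.

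The list of FOXO factors and targets had 18 of 22 measured members lower in treated cells, 7 at an unadjusted p under 0.05 and 11 lower in all 3 tumours, with a median of -0.39 (-0.55, -0.46 and -0.19 per tumour). Of these, Klhl24 passed. Ccng2, a cyclin of growth arrest, was at 3.83, 3.80 and 3.80 in treated cells and 4.70, 5.36 and 4.78 in the clones (-1.14 ± 0.33, SE in the fit over all probe sets; unadjusted limma p of 0.008). Fbxo32, an F-box ubiquitin ligase subunit, had -0.45, Foxo3 itself -0.36 and Foxo1 -0.78, while Cited2 had 0.51. In the MYC and MAX network 11 of 12 were lower, Mxd4 passing and the others between -0.35 and -0.02, against 0.12 for Mlx. Myc itself had -0.24, at means of 3.15 in treated cells and 3.39 in the clones, with 1 treated array dim. These levels lie near the array medians of 3.32 to 3.44. Whether this probe set reads the l-MYC of these mice was not tested. In the p53 list 8 of 16 were lower, and its members split: Trp53inp1 and Btg2 passed as lower, while Mdm2, the p53 ubiquitin ligase, had 0.42, Pmaip1 0.67 and Cdkn1a 1.52 at unadjusted p of 0.006, 0.02 and 0.035. Pmaip1 differed by 1.56, 0.32 and 0.13 in tumours 2567, 2646 and 2676, and its arrays overlapped between the groups. Cdkn1a was at 5.33, 6.31 and 3.09 in treated cells and 3.76, 3.44 and 2.96 in the clones. Both Cdkn1a arrays of tumour 2676 were dim, so that tumour gives no measured difference.

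Genes of B cell identity were lower in treated cells in 17 of 21 measured members, 8 at an unadjusted p under 0.05 and 8 in all 3 tumours, with a median of -0.30 (-0.51, -0.32 and -0.06 per tumour); none passed. Fcrla, an intracellular B cell protein, came nearest, at 5.99, 7.05 and 7.34 against 7.58, 8.58 and 7.81 (-1.20 ± 0.19, SE over all probe sets; gene-level adjusted p = 0.056). Pax5, the master regulator of the B lineage, averaged 8.09 against 8.56 and Cd79b 9.09 against 9.54, while Ms4a1 was dim on both sides (treated 2.86, 2.66 and 2.69). Cd79a was at 9.91 to 10.55 in treated cells and 10.05 to 10.75 in the clones. Of 17 measured BCR-signalling genes 10 were higher and 7 lower (median 0.10), none passing; 3 lower and 1 higher stood at an unadjusted p under 0.05. Bcl10, an adaptor of NF-kB activation, was the higher one, at 0.54. The lower ones, Btk, Pik3cd and Syk, had -0.65, -0.75 and -0.45 at unadjusted limma p of 0.002, 0.005 and 0.015.

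The lists of the GSK3 destruction complex and of Wnt target genes cover the pathway best known to respond to GSK3 inhibition, and no member passed. Of 18 measured members of the first, 9 were higher and 9 lower (median -0.00106; 3 lower and 0 higher at an unadjusted p under 0.05), Gsk3b at -0.02 ± 0.13 (SE) and Ctnnb1, beta-catenin, at -0.24 ± 0.09. Axin2, a standard Wnt target, was at 3.56 to 3.79 in treated cells and 3.55 to 3.69 in the clones, which overlapped, close to the array medians of 3.32 to 3.44. Of 15 measured Wnt targets 4 were higher and 11 lower (median -0.03), and none stood at an unadjusted p under 0.05; the lowest, Lgr5, had -1.28. Btrc, the ubiquitin ligase subunit that binds beta-catenin, had -0.69 ± 0.11 and a gene-level adjusted p of 0.057.

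Among the lists of trafficking, death and division, Cxcr4, the chemokine receptor for CXCL12, was at 8.48, 7.81 and 7.82 in treated cells and 9.14, 8.84 and 8.54 in the clones (-0.80 ± 0.16, SE over all probe sets; gene-level adjusted p = 0.122). Bmf, a pro-apoptotic BH3-only gene, was at 4.51, 4.66 and 4.50 against 5.25, 5.63 and 4.79 (-0.66 ± 0.15). The groups did not overlap for either gene, and neither passed. Of 16 mitosis and spindle genes 11 were lower, 9 of them in all 3 tumours, with a median of -0.12. Cenpf, a kinetochore protein, had -0.61 and Top2a, the topoisomerase of dividing cells, -0.27. Dimmer probe sets of Top2a had 0.30 and -0.05. The 19 DNA replication genes had a median of 0.03.

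Over the 34 pathway lists the median difference lay within 0.1 of 0 in 19 lists, above 0.1 in 9 and below -0.1 in 6, and 15 had the same sign in all 3 tumours. The lists of other cell types (T, NK, myeloid, stromal and endothelial, erythroid) had medians between -0.05 and 0.10, 37 of 43 markers measured and 19 of them above the 40th percentile; none passed. The single one at an unadjusted p under 0.05 was Cd2, at -1.24.

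**Figure D4:**
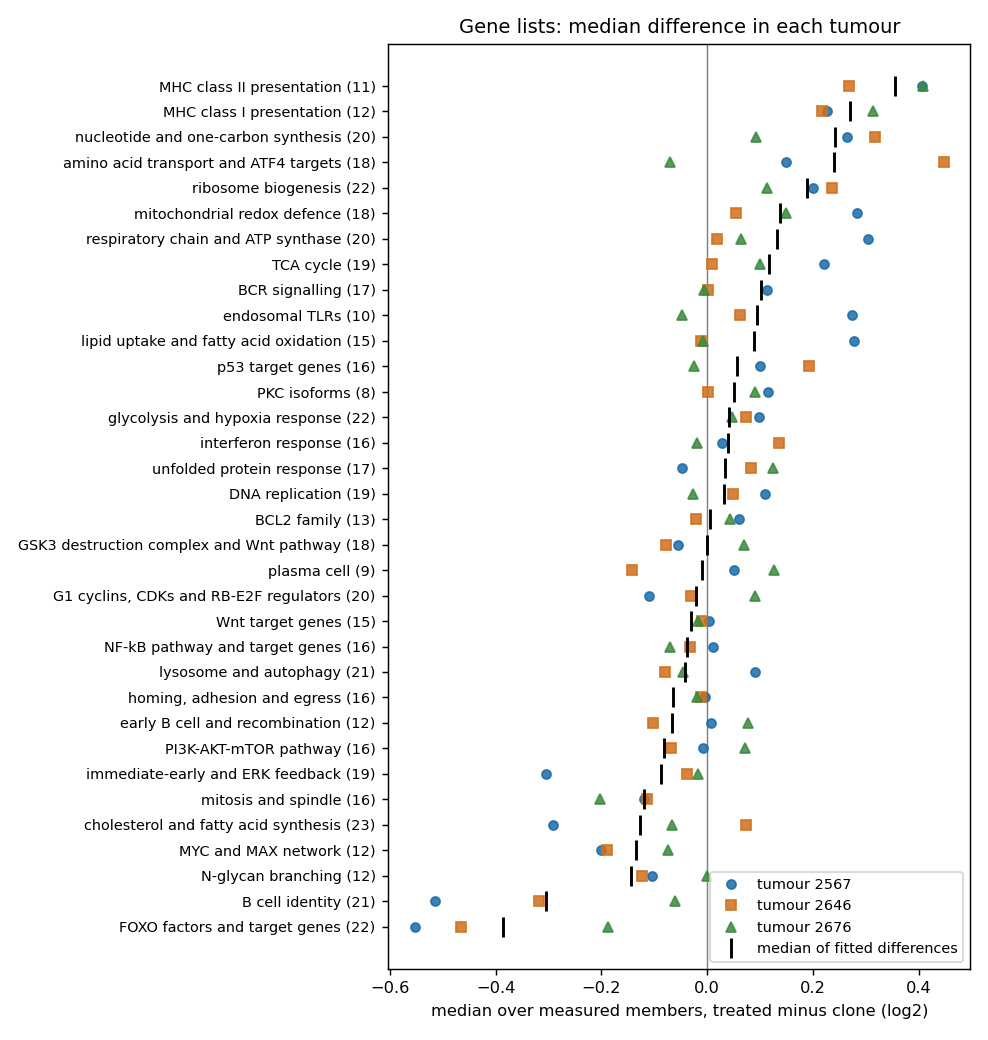
Median difference, treated minus clone (log2), over the measured members (number in brackets) of 34 gene lists; symbols are the 3 tumours and the black bar is the median of the fitted differences. MHC class II is highest at 0.35 and the FOXO list lowest at -0.39, and tumour 2676 is often nearest to 0.

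The tumours did not contribute alike. Over the 12961 genes the SD of the within-tumour difference was 0.412 in 2567, 0.331 in 2646 and 0.267 in 2676, and 254, 131 and 56 genes were at least 2-fold lower, 144, 72 and 28 at least 2-fold higher. The genes beyond 2-fold in the same direction in all 3 tumours numbered 12, 9 of them among the 21. The others were Selenop, Zic5 and Pik3cg, at -1.90, -1.62 and -1.56, with the treated array of 2567 dim for Selenop. For Zic5 this is the brighter probe set, and the gene's other one, at a mean level of 3.72, had only -0.19. Genes that passed 4-fold in 1 tumour and stayed under 0.5 log2 in the others numbered 18 in 2567, 8 in 2646 and 6 in 2676. Of these, Kcnk1, a potassium channel, was at 3.88 in treated cells and 8.17 in the clone of 2567, with 8.32 against 8.39 and 7.41 against 7.86 in the other 2 tumours. Igll1, the surrogate light chain component, was at 8.65 against 4.07 in tumour 2676, and at 4.09 against 4.00 and 4.38 against 3.92 elsewhere. Osr1, a zinc-finger gene, was at 7.48 against 3.24 in tumour 2567 and at 3.48 or less on the other 4 arrays, 2 of them dim. Hexa, a lysosomal hexosaminidase subunit, was at 6.14 in the clone of 2646 and at 3.42 or less on the other 5 arrays, 2 of them dim, and Pnrc2 was at 3.70 in the clone of 2676 and at 6.75 or more on the other 5. Each of these differences rests on 1 array against 1 array and has no replicate.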

How the data were processed

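The values are deposited log2 expression signals of Affymetrix Mouse Gene 1.1 ST arrays, made by the authors with Affymetrix Power Tools (RMA), as the submitters' processing notes name them without versions. RMA normalizes arrays to a common distribution and compresses dim signals. Depth has no meaning on arrays, where the number of arrays limits precision. All 12 arrays were fitted in limma 3.58.1 (R 4.3.3) with group and tumour, 6 residual degrees of freedom, and the treated-minus-clone contrast was adjusted by Benjamini-Hochberg over 35556 probe sets. The gene-level test kept 1 brightest single-symbol probe set per gene that exceeded the 40th percentile of 3 or more arrays. Tumour numbers pair the arrays: with each group's mean subtracted, treated and clone arrays correlated at 0.586 to 0.657 within tumours. Between tumours the values were -0.417 to -0.196. Subtracting the mean of 3 arrays makes these negative on average once those within tumours are positive, so they add no support. Symbols were updated by gene ID for 21185 of 21218 probe sets. The p-values rest on the spread left over all 12 arrays, in 4 groups, once group and tumour are fitted. That spread is moderated across probe sets. Each group holds 1 array of each of 3 tumours. The members and gene lists were chosen with earlier results of these data known. Scripts were tested on simulated data. Named were genes that passed, the 4 genes of the comparison's description, check genes and the leading members of each list, and 42 genes chosen after values were seen. Of 4 untreated titles ending in (2), the meaning is unknown; none is among the 6 arrays compared.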

Additional observations from a re-analysis of the deposited data

How the results depend on the processing

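Over all probe sets, the count that passed was 1 in the main analysis and 2 with no replicate block (no tumour pairing), 0 with only the 6 arrays, 7 with a trended robust variance, 2 with array weights, 8 after cyclic loess, 9 after quantile normalization, 2 with the title mark as a term, 0 against a 1.5-fold threshold, 6 with probe sets above the 40th percentile, 13 above the 60th and 21 with 1 probe set per gene; leaving out a tumour gave 0 to 2. At gene level, where 21 passed, alternatives chosen after seeing the data gave 5 with no replicate block, 1 with only the 6 arrays, 39 with array weights, 37 after cyclic loess, 33 after quantile normalization, 33 with the title mark, 1 against 1.5-fold and 0 to 12 without a tumour. Of the 21 genes, 21 kept their sign in each of those settings, which is no separate support. They were selected on this contrast and had the same sign in every tumour, so leaving out a tumour could not turn a sign. Settings that changed only the estimate of spread or the threshold left the difference itself as it was. The cause of the shifts in the counts was not tested. Signs turned in genes with differences near their error: Igkc went from -0.017 to 0.015 after quantile normalization, and leaving out a tumour gave Ighm -0.064 to 0.11, Igkc -0.46 to 0.51, Gsk3b -0.10 to 0.024, Alas2 -0.015 to 0.13, Osr1 -0.042 to 2.26, Hexa -1.33 to 0.33 and Pnrc2 -0.061 to 1.62. Over all named genes, 1720 of 1806 values kept sign and side of the threshold, 72 passed newly, 4 were lost and 10 turned sign; of 583 list medians, 45 moved beyond their spread. Array signal limits what can be said of Mgat4c in treated cells and of Ms4a1, which are below the 40th percentile.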
